A study of Homo sapiens with 8 samples.

Results

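Expression was compared between RBM6-KO1 and control cells 12 h after exposure to 5 Gy of ionizing radiation (IR). Every gene that passed a filter on low counts in the 4 irradiated libraries was taken, which left 15587 of 58233 gene identifiers. MCF10A is a non-tumorigenic human breast epithelial line, and both genotypes here carry the H-Ras oncogene (MCF10A-Hras) and were grown in the same medium with horse serum, EGF, hydrocortisone, cholera toxin and insulin. The knockout is 1 single-cell clone, made with a pair of guides and the Cas9 nickase D10A. In these libraries, a difference between genotypes and a difference between 1 clone and the control population cannot be told apart. Each genotype has 2 biological replicates, A and B, after IR. Another 4 libraries from untreated cells, 2 per genotype, are not part of this comparison. They are used below for values side by side from a test of their own, for an interaction test and in 1 alternative fit.

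RBM6 is a nuclear RNA-binding protein that acts on alternative splicing, the choice of which exons enter the mature mRNA. IR breaks both strands of DNA. Cells answer with checkpoint arrest, with p53 target genes such as CDKN1A, and with repair by end joining or by homologous recombination (HR), which copies an intact strand. Epithelial cells under stress also secrete chemokines, small proteins that attract leukocytes, many of them from genes that the transcription factor NF-kB switches on.

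Depth on genes was 15745769 and 29832009 counts in the control libraries and 19497699 and 20597570 in the RBM6-KO1 libraries. A count of 0 in 1 library allows a level of up to 0.0974 to 0.193 CPM (the library's counts scaled to a fixed total), and such limits cover counting error only. Basal epithelial markers were present in all 4 libraries (8 of 8 tested, summed level 9940 to 10400 CPM in control and 8280 to 8600 CPM in RBM6-KO1). Of 10 luminal markers 4 were tested. KRT8 was at 196 to 305 CPM, KRT18 at 147 to 303, GATA3 at 11.4 to 15.2 and FOXA1 at 2.16 to 5.13. The other 6 luminal markers, KRT19 and PGR among them, were under 1 CPM in all 4 libraries. Normalized CPM values are given below in the order control A, control B, RBM6-KO1 A and RBM6-KO1 B. RBM6 itself was at 54.1, 49.4, 44.5 and 33.9 normalized CPM. Its log2 fold change was -0.40 ± 0.20 (value ± standard error, here and below), with an adjusted p of 0.535 by the quasi-likelihood test of edgeR (p-values adjusted after Benjamini and Hochberg), so that RBM6 mRNA was within 2-fold of control and did not pass the test. The counts are summed over each gene and show neither the edited exon nor the protein.

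Genes with an adjusted p under 0.05 and a change of 2-fold or more count as called. Of the 15587 genes, 182 were called (1.17%), of which 127 (0.815%) were lower and 55 (0.353%) were higher in irradiated RBM6-KO1 cells. The adjusted p alone passed 189 genes (1.21%). Over all genes tested, 7440 of 15587 had a log2 fold change under 0, which is the background for such counts below. Log2 fold changes had a median of -2.33 (-9.13 to -1.01) in the lower genes, and 50 of them were lower by at least 8-fold. The higher genes had a median of 1.82 (1.03 to 7.33), with 11 of them higher by at least 8-fold. In all 182 called genes both RBM6-KO1 libraries lay outside the range of the control libraries, which was also true of 6039 of all genes tested. Protein-coding genes made up 121 of the lower and 46 of the higher calls, and lncRNAs 5 and 8. In RNA from whole cultures, fewer cells with a transcript and less of it per cell cannot be told apart. The number of calls leaned on single libraries. It was 406 without control A, 477 without control B, 268 without RBM6-KO1 A and 169 without RBM6-KO1 B, and in the last case 137 of the 182 genes remained called. Without control B the direction of the calls was nearly even (231 lower, 246 higher). With a filter of at least 10 counts in each library, 71 genes were called, all among the 182. With 2 libraries per group, the smallest p that a two-sided exact permutation test could give is 0.333, so that all p-values rest on the spread shared across genes by the edgeR model.

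**Figure D1:**
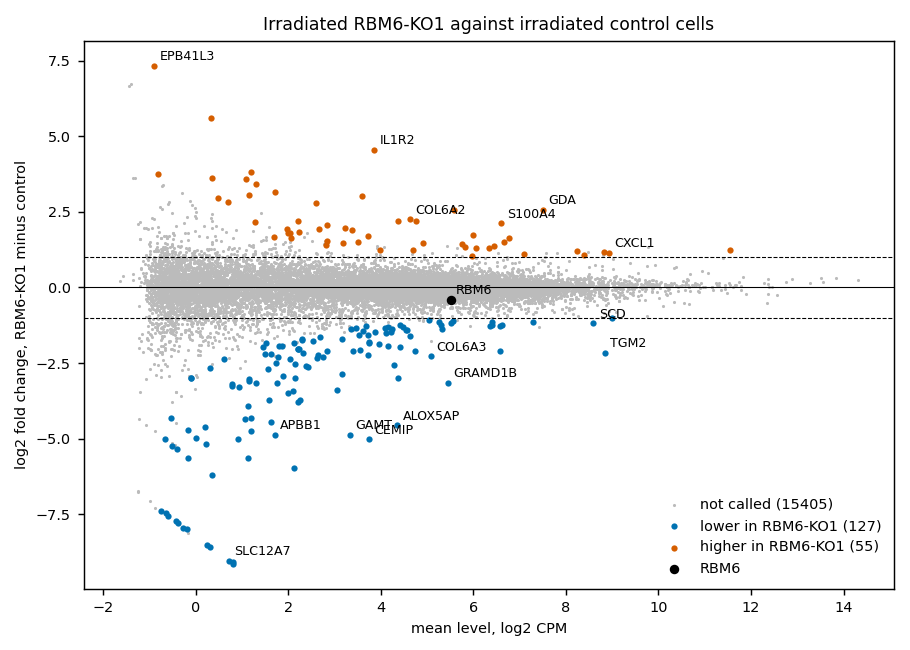
Log2 fold change of each tested gene in irradiated RBM6-KO1 against irradiated control cells (y axis) against its mean level in log2 CPM (x axis). Blue points are the 127 lower calls, orange points the 55 higher calls, grey points the genes not called, and dashed lines mark a 2-fold change. RBM6 (black) lies between the dashed lines.

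The genes with the smallest p-values came from different functions. ALOX5AP, which presents arachidonic acid to 5-lipoxygenase in leukotriene synthesis, was at 41.9, 36.4, 2.09 and 1.23 normalized CPM, a log2 fold change of -4.56 ± 0.30 (edgeR, adjusted p = 0.00446). Both RBM6-KO1 libraries were far under both control libraries. It was the only called gene among 17 tested genes of leukotriene and prostaglandin synthesis, whose median was -0.04. IL1R2, the decoy receptor that binds interleukin-1 without signalling, was at 1.22, 1.14, 29.3 and 25.9 normalized CPM, a log2 fold change of 4.55 ± 0.25 (edgeR, adjusted p = 0.00331). The 2 interleukin-1 genes of highest level did not pass the test. IL1B was at 1382, 1385, 1552 and 1635 normalized CPM, a log2 fold change of 0.20 ± 0.15, and that of IL1A was 0.08 ± 0.17. Of 16 tested genes of the interleukin-1 family and its receptors, IL1R2 was the only one called.

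TGM2, a transglutaminase that cross-links proteins, had the highest control level of the 12 lower genes with the smallest p-values. Its 800 and 699 normalized CPM in control cells stood against 165 and 171 in RBM6-KO1 cells (-2.16 ± 0.16 in log2 fold change, edgeR adjusted p = 0.00471). FBXO32, a muscle-atrophy ubiquitin ligase subunit, was at 144, 163, 34.6 and 37.4. CRAT, the carnitine acetyltransferase of mitochondria and peroxisomes, was at 40.4, 33.4, 4.53 and 4.66. SLC2A3, the glucose transporter GLUT3, was at 32.4, 33.6, 5.99 and 5.20, and GAMT, which makes creatine, was at 24.7, 14.4, 0.678 and 0.637. These 4 genes have known roles in energy metabolism or in muscle, and their log2 fold changes were -2.09, -3.00, -2.56 and -4.88 (edgeR, adjusted p = 0.00505, 0.00471, 0.00505 and 0.00505). The remaining lower genes with the smallest p-values code for proteins at the cell surface or outside the cell, apart from GRAMD1B and APBB1, which are described below. JAM3, a junctional adhesion molecule, was at 8.16, 8.54, 0.626 and 0.588, FGFBP1, a carrier of fibroblast growth factors, at 17.0, 13, 1.36 and 1.47, and DRAXIN, a guidance cue of growing axons, at 7.13, 7.08, 0.730 and 0.539. Their log2 fold changes were -3.77, -3.40 and -3.48 (edgeR, adjusted p = 0.00505, 0.00505 and 0.00779). JAM3 shares 1889 exonic bases with NCAPD3 on the other strand, and since the strandedness of the counting is not given in the sources used here, reads from the shared stretch cannot be told apart. The same holds for 396 bases that TGM2 shares with RPRD1B.

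GDA, the guanine deaminase of purine breakdown, stood highest among the 12 higher genes with the smallest p-values, with 42.3 and 61.5 normalized CPM in control and 278 and 342 in RBM6-KO1 cells. It was higher by a log2 fold change of 2.58 ± 0.23 (edgeR, adjusted p = 0.00682), and none of the other 36 tested genes of purine and pyrimidine metabolism was called. S100A4, a calcium-binding protein often studied in cell migration, was at 39.9, 32.9, 169 and 148, a log2 fold change of 2.12 ± 0.18 (edgeR, adjusted p = 0.00568). It stood alone in its family, since 12 of 14 tested S100 genes had a log2 fold change under 0 and none of the other 13 was called. ATOH8, a basic helix-loop-helix factor, was at 2.63, 2.57, 21.3 and 21.5, and FOXF1, a forkhead factor, at 0.450, 0.227, 3.91 and 3.78. Of 35 tested genes of retinoid and xenobiotic metabolism 2 were called (5.71%), STRA6 and CYP1B1, both higher, and 1.17% of all genes were called. STRA6, the membrane receptor for retinol-binding protein, was at 32.4, 26.5, 109 and 86.3, and RBP4, the retinol-binding protein itself and outside that list, at 0.578, 0.682, 5.89 and 5.64. The log2 fold changes of ATOH8, FOXF1, STRA6 and RBP4 were 3.04, 3.60, 1.73 and 3.16 (edgeR, adjusted p = 0.00471, 0.0147, 0.0137 and 0.0104). AQP9, a channel for water and glycerol, PF4, a platelet chemokine (CXCL4) that the symbol families below do not count, and CPLX1, a regulator of vesicle fusion, completed the 12 with log2 fold changes of 3.41, 2.79 and 2.06 (edgeR, adjusted p = 0.0120, 0.0120 and 0.0141). FOXF1, AQP9 and RBP4 were under 1 CPM in both control libraries and were not tested under the filter of at least 10 counts.

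**Figure D2:**
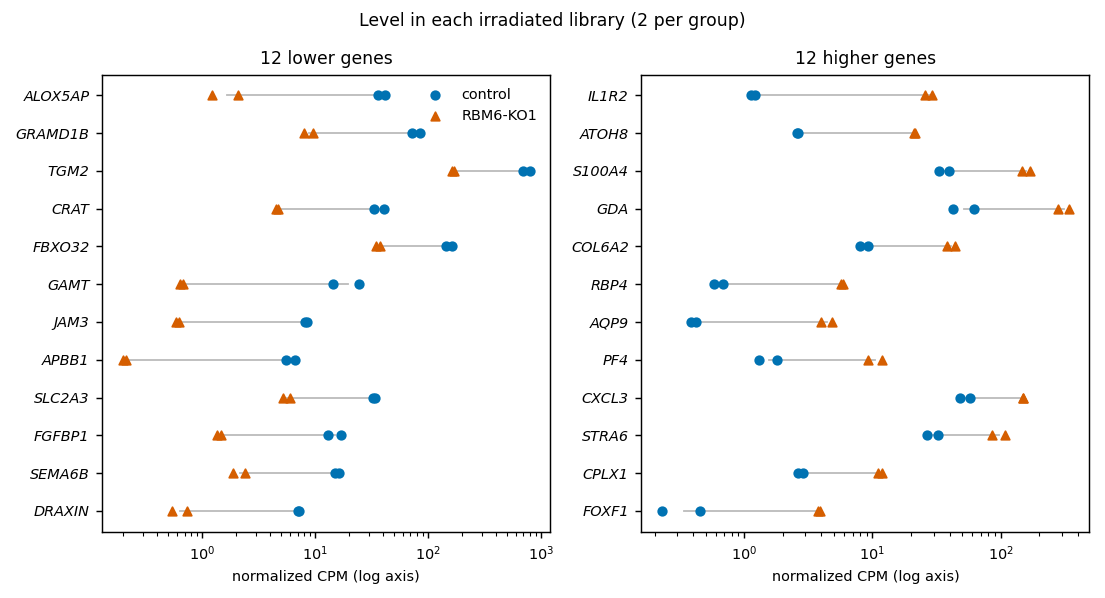
Normalized CPM (log axis) in each irradiated library of the 12 lower genes (left) and the 12 higher genes (right) with the smallest p-values. Circles are control and triangles RBM6-KO1 libraries, 2 per group, and the line joins the group means. The symbols of the 2 groups do not overlap in any of the 24 genes, which was a condition of their choice.

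Cholesterol and fatty acid synthesis is driven by the SREBP transcription factors, which the cell activates when membrane sterol is low. The list of sterol synthesis and SREBP targets also holds 6 tested genes of sterol transport and efflux, GRAMD1B among them. In irradiated RBM6-KO1 cells 5 of the list's 37 tested genes were lower and none was higher (13.5% called, against 1.17% of all genes). The list's median log2 fold change was -0.65, against 0.02 over all genes, and 35 of the 37 lay under 0. GRAMD1B, which carries cholesterol from the plasma membrane to the endoplasmic reticulum, had the largest difference, with 84.5 and 71.6 normalized CPM in control and 7.92 and 9.61 in RBM6-KO1 cells (log2 fold change -3.15 ± 0.21, edgeR adjusted p = 0.00446). SCD, which puts the double bond into stearate, was at 483, 589, 211 and 265. FADS2, the delta-6 desaturase, was at 120, 116, 51.8 and 48.7. These enzymes act on fatty acids, whereas the other called members act in the sterol branch. HMGCS1, an early enzyme of the mevalonate pathway, was at 49.8, 56.0, 22.8 and 25.0, and TM7SF2, a sterol reductase, at 10.4, 7.44, 2.87 and 2.35. The log2 fold changes of SCD, FADS2, HMGCS1 and TM7SF2 were -1.17, -1.23, -1.15 and -1.76 (edgeR, adjusted p = 0.0342, 0.0156, 0.0342 and 0.0389). Without RBM6-KO1 B the adjusted p was 0.0622 for FADS2, 0.0928 for HMGCS1 and 0.0697 for TM7SF2 (edgeR), and without RBM6-KO1 A it was 0.106 for HMGCS1. The filter of at least 10 counts ended the calls of SCD, HMGCS1 and TM7SF2 (edgeR, adjusted p = 0.0552, 0.0551 and 0.0622). HMGCS1 shares 2125 exonic bases with a lncRNA that was not tested, and FADS2 shares 165 with FADS1.

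Most of the list lay within 2-fold. FASN, the fatty acid synthase and the member of highest level, was at 1087, 1164, 534 and 645 normalized CPM, a log2 fold change of -0.93 ± 0.16 (edgeR, adjusted p = 0.0502). ACLY, which supplies acetyl-CoA, had a log2 fold change of -0.26 ± 0.20, and FDFT1, the squalene synthase, -0.68 ± 0.15, and neither passed the test (edgeR, adjusted p = 0.752 and 0.0995). All 9 tested genes of the mevalonate and squalene steps lay under 0 (median -0.42), as did 9 of 10 genes from ring closure to cholesterol (median -0.47), all 8 genes of fatty acid synthesis and desaturation (median -0.70) and all 4 regulators and uptake genes (median -0.71). Of the 6 genes of sterol transport and efflux 5 lay under 0 (median -0.62, -3.15 to 0.83). Chosen after its values were seen, the regulator SREBF1 had a log2 fold change of -0.90 without a call. The sterol regulatory element, searched as TCACNCCAC on both strands of the 250 bases before the start, was found in 1 of 29 promoters of the list (3.45%, SREBF2), against 0.879% of all promoters, and its choice followed the values. GRAMD1C, a relative of GRAMD1B, was at 3.21, 5.68, 7.30 and 8.83, which gives 0.83 (edgeR, adjusted p = 0.377). The summed level of the list was 5322 and 5601 CPM in control and 3221 and 3661 CPM in RBM6-KO1 libraries.

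Chemokine genes were the clearest group on the higher side. Of 8 tested genes with CXCL or CCL symbols, 4 were higher in irradiated RBM6-KO1 cells (50.0%, against 0.353% of all genes in this direction), and the median log2 fold change was 1.16. CXCL1, CXCL2 and CXCL3 code for neutrophil attractants, and CCL20 attracts dendritic cells and lymphocytes that carry CCR6. Their promoters, from RefSeq (GRCh38.p14), are shown because all 4 hold a motif of NF-kB, searched as GGG and TTCC with any 3 bases between them, on both strands of the 250 bases before the gene's start. Each line is 5′ to 3′ on the gene's strand, with the match in capitals.
CXCL1 (chr4:73869284-73869353, plus strand): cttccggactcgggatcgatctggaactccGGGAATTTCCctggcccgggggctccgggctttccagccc
CXCL2 (chr4:74099234-74099303, minus strand): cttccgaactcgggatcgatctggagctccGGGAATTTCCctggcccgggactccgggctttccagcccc
CXCL3 (chr4:74038729-74038798, minus strand): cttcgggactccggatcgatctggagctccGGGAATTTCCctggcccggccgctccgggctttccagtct
CCL20 (chr2:227813733-227813802, plus strand): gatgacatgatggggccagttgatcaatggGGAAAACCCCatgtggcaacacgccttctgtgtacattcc
The match begins 79 bases before the start in CXCL1, CXCL3 and CCL20 and 78 bases before it in CXCL2, and the CXCL1, CXCL2 and CXCL3 sites also match on the other strand with a shift of 1 base. In CCL20 the match is on the minus strand only. The motif was chosen after the values were seen. It was found in 4 of 7 chemokine promoters (57.1%). The 7 of 41 promoters of higher genes that hold it (17.1%) include these 4. It was also found in 6 of 82 promoters of lower genes (7.32%), in 726 of 10843 promoters of tested genes (6.7%) and in 1533 of all 27195 promoters (5.64%). The sites of CXCL1, CXCL2 and CXCL3 lie in near-identical sequence, so they are not separate observations. A match is a run of letters in a window and not a measured binding site.

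CXCL1 was at 303 in both control libraries and at 668 and 681 normalized CPM in the RBM6-KO1 libraries, and CCL20 at 276, 277, 606 and 644. CXCL2 was at 39.2, 37.3, 100 and 90.3, and CXCL3 at 47.9, 58.1, 151 and 151. In each of the 4 genes the replicates were close to each other and the groups were apart. The log2 fold changes were 1.15 for CXCL1, 1.18 for CCL20, 1.32 for CXCL2 and 1.51 for CXCL3 (edgeR, adjusted p = 0.0156, 0.0154, 0.0153 and 0.0120). CXCL1, CXCL2 and CXCL3 are near-identical copies, so how their shared reads were divided is uncertain. CCL20 fell short of 2-fold in a fit corrected for GC content and length, with a log2 fold change of 0.87. CXCL8, the chemokine gene of highest level, was at 391, 606, 1024 and 1506, a log2 fold change of 1.34 ± 0.27 that did not pass the test (edgeR, adjusted p = 0.0771). PF4 was at 1.80, 1.30, 11.8 and 9.17, on a lower scale than the genes above. CXCL16 had a log2 fold change of -1.06 and CXCL14 one of -2.93, both without a call. On the wider list of chemokines and NF-kB targets 16 of 22 tested genes lay above 0 (median 0.37) and the 4 chemokines were its only calls. CSF3, the granulocyte growth factor, had 0.73 and NFKBIA, the inhibitor that NF-kB itself induces, had 0.26 (edgeR, adjusted p = 0.144 and 0.610).

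Other genes of inflammation and of the injured matrix were split in direction. TNFAIP6, a hyaluronan-binding protein induced by cytokines, was at 5.91, 8.64, 28.2 and 39.3 normalized CPM (log2 fold change 2.20 ± 0.28, edgeR adjusted p = 0.0157). CEMIP, which breaks down hyaluronan, was at 16.6, 34.1, 0.365 and 1.18 (log2 fold change -5.02 ± 0.55, edgeR adjusted p = 0.0120), and replicate B was above A in both groups without the groups overlapping. These were the calls among 14 tested genes of hyaluronan turnover (14.3%, against 1.17% of all genes). PLAT, the tissue plasminogen activator, was at 42.3, 47.1, 19.8 and 22.2, and SERPINB2, a serpin that inhibits plasminogen activators, was at 4.62, 4.87, 11.9 and 14.5. Their log2 fold changes were -1.09 and 1.47 (edgeR, adjusted p = 0.0453 and 0.0338). Both calls were lost without RBM6-KO1 B (edgeR, adjusted p = 0.118 and 0.0921 for PLAT and SERPINB2), that of PLAT also without RBM6-KO1 A (edgeR, adjusted p = 0.183), and both with the filter of at least 10 counts. CEMIP, with 7 counts in RBM6-KO1 A, was not tested under that filter. PLAT had a log2 fold change of -0.96 with the correction for GC content and length. Among 43 tested interferon-stimulated genes BST2, a tether of budding viruses, was the only call, at 63.1, 43.3, 183 and 144, while the median of the list was -0.14. BISPR, a lncRNA beside BST2 and named after its values were seen, was also higher, at 0.963, 0.779, 3.44 and 4.27. TLR2, PYCARD and SOCS3, likewise named after their values were seen, were called lower. TLR2, a receptor for bacterial lipoproteins, had a log2 fold change of -2.16, PYCARD, the inflammasome adaptor, had no count in either RBM6-KO1 library, and SOCS3, a feedback inhibitor of cytokine signals, had -1.94 (edgeR, adjusted p = 0.0258, 0.0154 and 0.0302).

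Genes of epithelial junctions lay mostly on the lower side. Of 33 tested genes of epithelial adhesion and polarity 28 lay under 0, with a median log2 fold change of -0.44. Among them 2 were called (6.06%, against 1.17% of all genes), both lower. The median was -0.27 without control B and -0.36 with the correction for GC content and length. EPCAM, an epithelial adhesion molecule, was at 19.5, 21.7, 6.41 and 5.30 normalized CPM (log2 fold change -1.82 ± 0.22, edgeR adjusted p = 0.0151). ST14, the membrane protease matriptase, was at 125, 109, 58.5 and 48.4 (log2 fold change -1.13 ± 0.17, edgeR adjusted p = 0.0336), and its call was lost without RBM6-KO1 B (edgeR, adjusted p = 0.147), with the filter of at least 10 counts and with the correction for GC content and length (log2 fold change -0.96). The members of highest level, PERP of desmosomes and the catenins CTNNB1 and CTNND1, had log2 fold changes of -0.08, -0.01 and -0.35 without a call. CDH1, the epithelial cadherin, named after its values were seen, was at 37.7, 49.9, 19.1 and 28.2, a log2 fold change of -0.89 (edgeR, adjusted p = 0.198). KRT80, a keratin of stratified epithelia, had -2.22 (edgeR, adjusted p = 0.0111), and none of the other 15 tested keratins was called. PPL, the periplakin of the cornified envelope, named after its values were seen, had -1.84 (edgeR, adjusted p = 0.0151). Genes of the mesenchymal state did not move one way, since 18 of 32 lay under 0, and POSTN was lower. FN1, the fibronectin gene, was at 1332, 2250, 1992 and 3042, so that its groups overlapped.

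Matrix genes also lay mostly on the lower side, with a split within collagen VI. Of 23 tested collagen genes 18 lay under 0 (median -0.64), and 2 were called (8.7%, against 1.17% of all genes). COL6A3 was at 43.0, 68.4, 10.0 and 12.9 normalized CPM and COL6A2 at 9.19, 7.99, 44.1 and 37.9, so that 2 chains of the same collagen VI changed in opposite directions (log2 fold changes -2.28 and 2.26, edgeR adjusted p = 0.0151 and 0.00779). COL6A1, the remaining chain of that trimer, named after its values were seen, was at 79.3, 72.1, 107 and 90.3 (log2 fold change 0.38, edgeR adjusted p = 0.457). COL17A1 and COL4A2, the collagens of highest level, had -0.17 and -0.83 (edgeR, adjusted p = 0.831 and 0.0597). LAMA5, a laminin chain of basement membranes, was at 641, 729, 317 and 365, a log2 fold change of -1.01 that lay just past the 2-fold limit (edgeR, adjusted p = 0.0364). It was not called without control B, RBM6-KO1 A or RBM6-KO1 B (log2 fold changes -0.93, -0.91 and -1.13), and not with the filter of at least 10 counts (edgeR, adjusted p = 0.0556), and had -0.77 with the correction for GC content and length. Of 31 basement membrane and hemidesmosome genes 26 lay under 0 (median -0.26, which was -0.51 without control A, -0.48 without RBM6-KO1 B and -0.11 with the correction for GC content and length), among them LAMB3 and PLEC with -0.24 and -0.19, and LAMA5 was the only call. Of 11 tested matrix metalloproteinases 10 lay under 0 (median -0.71), 5 of them at an unadjusted p under 0.05 (45.5%, beside 6.71% of all genes in the lower direction). None was called in edgeR, against 1 in DESeq2. DCN, the small proteoglycan decorin, was at 77.8, 95.0, 169 and 205, a log2 fold change of 1.11 (edgeR, adjusted p = 0.0389), which was 0.95 without RBM6-KO1 B, 0.97 without control A and 0.97 with the correction for GC content and length, all short of 2-fold, and the filter of at least 10 counts ended its call too. Among contractile genes MYL9, the myosin light chain of smooth muscle, was at 48.8, 37.6, 11.7 and 8.58 (log2 fold change -2.09, edgeR adjusted p = 0.0147), whereas FLNA, MYH9 and ACTN4, the most abundant of the 29 tested, had log2 fold changes between -0.13 and 0.03.

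Of 39 tested genes of the cadherins and of axon guidance 2 were called (5.13%, against 1.17% of all genes), EPHB2 and CDH4, both lower. In that list 27 genes lay under 0, with a median log2 fold change of -0.44, which was -0.26 without RBM6-KO1 A. EPHB2 and EPHB3, receptors for membrane-bound ephrins, were called among 13 tested ephrin and receptor genes (15.4%, against 1.17% of all genes). Under 0 lay 11 of the 13. EPHB2 was at 24.1, 24.2, 7.09 and 6.28 normalized CPM, and EPHB3 at 8.74, 10.4, 2.92 and 3.19, with log2 fold changes of -1.85 and -1.65 (edgeR, adjusted p = 0.0120 and 0.0316). EPHA2, the family member of highest level, had -0.25 without a call. SEMA6B, a transmembrane semaphorin, was at 16.3, 15.1, 1.88 and 2.40 (log2 fold change -2.86, edgeR adjusted p = 0.00682), the only call among 25 tested semaphorins and plexins, of which 13 lay under 0. CDH4, a cadherin of nerve and retina, was at 32.8, 26.5, 12.5 and 12.7 (log2 fold change -1.23, edgeR adjusted p = 0.0428), and its call was lost when either RBM6-KO1 library was left out (adjusted p = 0.0697 without A and 0.124 without B, edgeR) and, with those of EPHB3, SFRP1, ADAM8 and ADAM19 given here, under the filter of at least 10 counts. The clustered protocadherins PCDHA4 and PCDHGB5 were at about 1 CPM in control cells and at or near 0 in RBM6-KO1 cells, and they share their constant exons with the other genes of their clusters, so that the gene of origin is uncertain. In the WNT pathway 2 of 32 tested genes were called (6.25%, against 1.17% of all genes). WNT9A, a ligand, had a log2 fold change of -2.04 and SFRP1, a secreted antagonist, had -1.24 (edgeR, adjusted p = 0.0227 and 0.0333), while CTNNB1 and LRP5 had -0.01 and -0.44. On the higher side, BMP6, a ligand of the BMP branch, was at 5.14, 7.11, 18.7 and 21.6 (log2 fold change 1.70, edgeR adjusted p = 0.0258), and IGFBP4, which binds insulin-like growth factors, was at 33.0, 25.5, 82.8 and 73.5 (1.42, edgeR adjusted p = 0.0235). ADAM8 and ADAM19, metalloproteases that shed surface proteins, had -1.71 and -1.27 (edgeR, adjusted p = 0.0320 and 0.0333). The call of ADAM8 was lost without RBM6-KO1 B (edgeR, adjusted p = 0.0616). KDR, the receptor for vascular endothelial growth factor, was at 4.88, 10.0, 0.469 and 0.932, a log2 fold change of -3.41 (edgeR, adjusted p = 0.0264). With 9 counts in RBM6-KO1 A, KDR was not tested under the filter of at least 10 counts. PECAM1, an adhesion molecule of endothelial cells, was at 1.61, 1.14, 3.81 and 4.12, a log2 fold change of 1.56 (edgeR, adjusted p = 0.0865), and TEK, the angiopoietin receptor, was at 0.771, 1.23, 0.782 and 2.11, so that both had values on the other side from KDR without a call. Of the remaining endothelial markers CDH5 and VWF were under 1 CPM in all 4 libraries.

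Transport and metabolism gave single genes. Of 207 tested solute carriers 5 were lower and 2 higher (3.38% called, against 1.17% of all genes). SLC4A11, a member of the bicarbonate transporter family, was at 9.31, 8.74, 1.20 and 1.72 normalized CPM (log2 fold change -2.62, edgeR adjusted p = 0.0120), and SLC16A6, a monocarboxylate carrier, at 3.08, 5.49, 14 and 18.8 (1.90, edgeR adjusted p = 0.0428). SLC7A8, a carrier of neutral amino acids, had 1.39, and its call was lost without RBM6-KO1 B (edgeR, adjusted p = 0.116). Of 29 glycolysis genes SLC2A3 was the only call, and GAPDH, ENO1 and PKM had log2 fold changes between -0.07 and 0.03. Among 28 citrate cycle genes OGDHL, a relative of oxoglutarate dehydrogenase, was at 1.73, 2.11, 0.313 and 0.294 (-2.65, edgeR adjusted p = 0.0429), a call that was lost without control B or RBM6-KO1 B (edgeR, adjusted p = 0.0602 and 0.0731). CYP27B1, which activates vitamin D, had -1.52, whereas CYP1B1, which oxidizes oestrogens and polycyclic hydrocarbons, was at 26.9, 36.4, 70.9 and 90.0, with 1.34 (edgeR, adjusted p = 0.0316 and 0.0380). The call of CYP1B1 was lost without RBM6-KO1 B (edgeR, adjusted p = 0.0881). RPL39L, a testis-rich copy of a ribosomal protein gene, was at 4.88, 3.57, 0.156 and 0.147 (-4.74, edgeR adjusted p = 0.00971) and was the only call among 82 cytosolic ribosomal protein genes. Of 411 zinc finger genes tested, ZNF32 and ZNF711 were called, both lower (0.487%, against 0.815% of all genes in this direction). The filter of at least 10 counts ended the calls of SLC16A6, SLC7A8, CYP27B1 and CYP1B1. OGDHL, RPL39L, ZNF32 and ZNF711 had under 10 counts in both RBM6-KO1 libraries and were not tested under it.

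Between 0 and 2 genes were called in each list of the damage response and of RNA processing given here, where the 1.17% called among all genes comes to under 1 gene in a list of this size. In edgeR none was called among 46 tested p53 targets, 45 genes of DNA replication, 67 of mitosis, 21 of end joining, 34 of excision repair, 47 SR and hnRNP splicing factors and 47 of mRNA decay, and DESeq2 also called 0 in each of these lists. An unadjusted p under 0.05 was reached by 9 lower and 1 higher p53 targets, by 6 lower genes of mitosis, by 1 lower gene each of replication, excision repair and the splicing factors, and by 0 genes of end joining and mRNA decay. These were 21.7% of the p53 targets and 8.96% of the genes of mitosis, beside 11.1% of all genes tested, both directions together. In the lower direction alone they were 19.6% of the p53 targets and 8.96% of the genes of mitosis, beside 6.71% of all genes. CDKN1A, the p53 target that halts the cycle, was at 1706, 1513, 1623 and 1613 normalized CPM after IR (log2 fold change 0.01, standard error 0.15), and at 471, 449, 404 and 376 in the untreated libraries in the same order of genotypes. Both genotypes thus had levels of CDKN1A that were higher in every irradiated than in any untreated library. The medians were -0.12 for p53 targets, -0.02 for replication, -0.19 for mitosis, where 49 of 67 lay under 0, and 0.04 for end joining. That of p53 targets was -0.22 without control A, -0.03 without RBM6-KO1 A and -0.25 without RBM6-KO1 B, and that of replication was -0.16 without control B. DDB2, which recognizes ultraviolet lesions, passed the adjusted p (0.0444 from edgeR) but not 2-fold, with a log2 fold change of -0.91. In HR, 1 of 38 tested genes was called (2.63%), and the median was 0.07, which was 0.02 without control A.

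That gene was APBB1 (Fe65), an adaptor of the amyloid precursor protein that is also linked to repair of breaks. It was at 6.68, 5.55, 0.209 and 0.196 normalized CPM, from 104, 171, 4 and 4 counts, a log2 fold change of -4.87 ± 0.39 (edgeR, adjusted p = 0.00505). Of 33 tested damage checkpoint genes 2 were called (6.06%, against 1.17% of all genes). EYA2, a tyrosine phosphatase and transcriptional coactivator, was at 6.36, 6.37, 0.782 and 0.883, and PPP2R2C, a regulatory subunit of protein phosphatase 2A, at 5.52, 8.87, 1.98 and 1.57. Their log2 fold changes were -2.92 and -2.03 (edgeR, adjusted p = 0.0111 and 0.0406). The call of PPP2R2C was lost with the filter of at least 10 counts (edgeR, adjusted p = 0.0667). APBB1, with 4 counts in each RBM6-KO1 library, was not tested under that filter and has no call there. All 3 genes fell with groups well apart. They are on these lists because the study chose them from these libraries, so that their calls are not independent evidence about the lists. Without them no tested member of the HR and damage checkpoint lists was called, RPA1, MCM8 and RBBP8 having log2 fold changes of -0.13, 0.13 and -0.11 and CDC25B, the checkpoint member of highest level, -0.59 (edgeR, adjusted p = 0.135).

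**Figure D3:**
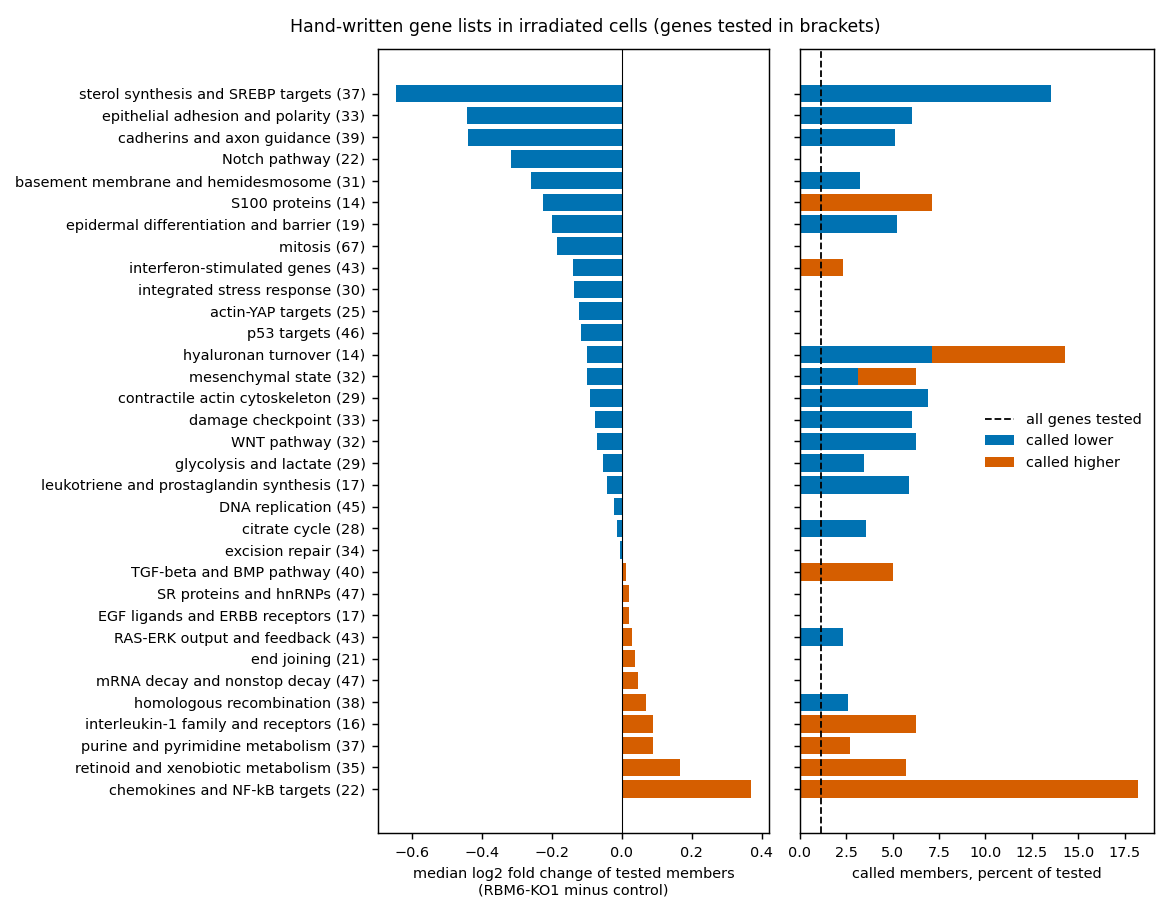
Median log2 fold change of the tested members (left) and percent of tested members called (right) for 33 gene lists in irradiated cells, with the number tested in brackets. The sterol list has the lowest median at -0.65 and the list of chemokines and NF-kB targets the highest at 0.37, and 11 lists have no called member. The dashed line is 1.17%, the share of all genes.

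Of the 182 calls, 38 were members of one of the 33 lists and 62 of a list or of one of 33 gene families, so that most calls lay outside them. Among the lower genes 23 had no more than 3 counts in both RBM6-KO1 libraries together, and 12 of these had none. SLC12A7, a potassium and chloride cotransporter, had 53 and 84 counts in control cells and 0 in both RBM6-KO1 libraries, which is at least 40.5-fold lower against a floor of 3 counts over the group. NUDT11, a diphosphatase of inositol phosphates, had 55 and 93 counts against 0 and 0 (at least 43.2-fold lower), and NAP1L3, a nucleosome assembly protein, 37 and 119 against 0 and 0 (at least 41.2-fold lower). These genes were thus at a low but clear level in control cells and not detected in the clone. The others without a count were LYNX1, PYCARD, ZNF711, HCG11, SLC66A1L, KIRREL2, POSTN, WT1 and PCDHA4, with bounds between 13.2-fold and 29.2-fold. In the other direction EPB41L3, a membrane skeleton protein, had 0 counts in both control libraries and 16 and 21 in RBM6-KO1 (at least 14.4-fold higher).

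Most of the calls were found as well in the untreated libraries, which the irradiated comparison does not use. Of the 127 lower genes 118 were tested in untreated cells, all 118 lay under 0 there, and 111 were called lower. Of the 55 higher genes 54 were tested, all 54 lay above 0, and 44 were called higher. The shares of all genes called or under 0 in untreated cells are not given here, so these counts stand without that background. The sterol list had a median of -0.62 in untreated cells with 35 of its genes under 0. Genes called after IR and tested but not called in untreated cells numbered 7 lower, such as SORL1, LAMA5 and MYO7A, and 10 higher, such as TNFAIP6, CCL20, CXCL1, DCN and HSD11B1. Some of these missed only the 2-fold limit in untreated cells. LAMA5, TNFAIP6, CCL20, CXCL1 and DCN had log2 fold changes of -0.89, 0.98, 0.95, 0.90 and 0.91 there (edgeR, adjusted p = 0.000847, 0.00726, 0.000261, 0.000557 and 0.00147). A call after IR without a call in untreated cells does not show that IR changed the difference between genotypes. That difference was tested as an interaction between IR and genotype on 8 libraries, which passed 0 of 16549 genes at an adjusted p under 0.05 in edgeR and 306 at an unadjusted p under 0.05, of which 8 were lower and 4 higher calls. These calls were selected on their irradiated difference, which is part of the interaction, so their number here is no evidence of a changed difference. The values for 3 of the 12 are given as examples. TNFAIP6 was at 12.2, 9.46, 22.8 and 19.9 normalized CPM in untreated cells, a log2 fold change of 0.98 against 2.20 after IR. JAM3 was at 6.03, 6.34, 1.69 and 1.40, a log2 fold change of -1.99 against -3.77 after IR. ALOX5AP was at 48.0, 37.7, 0.791 and 0.401, so that its log2 fold change of -6.12 was larger in size than the -4.56 after IR. The interaction had unadjusted p = 0.00516, 0.000707 and 0.00742 in these 3 genes, and none passed the adjustment in edgeR.

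The calls were not spread evenly over the genome. On chromosome 20, 13 of 417 tested genes were lower and 1 was higher (3.36% called), the median log2 fold change was -0.25, and 333 genes (79.9%) lay under 0. The next lowest chromosome, 22, had a median of -0.06. The shift on chromosome 20 was present in untreated cells too (median -0.27) and in all 7 windows of 10 Mb (medians -0.33 to -0.17). TGM2, EYA2, MYL9, SLC4A11, LAMA5 and CDH4 are on this chromosome, so that a chromosome-wide difference between the clone and the control cells moves with the values of these genes, and its part in them was not tested. With the genes of chromosome 20 taken out after the fit and the same p-values adjusted again, 165 genes were called, 113 lower and 52 higher. The fit itself still included chromosome 20. The log2 fold change also followed GC content, with a Spearman rho of -0.32 across 15484 genes, which are not independent of each other, and a rho of 0.003 with exonic length. Among the 3871 genes of lowest GC content the median was 0.17 with 10 lower calls, and among the 3871 of highest GC content it was -0.09 with 61 lower calls. Lower calls had a median GC content of 55.3% and higher calls of 48.9%, against 48.5% in the other genes. With a correction for GC content and length, 176 of the 182 genes remained called, and their directions were kept.

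**Figure D4:**
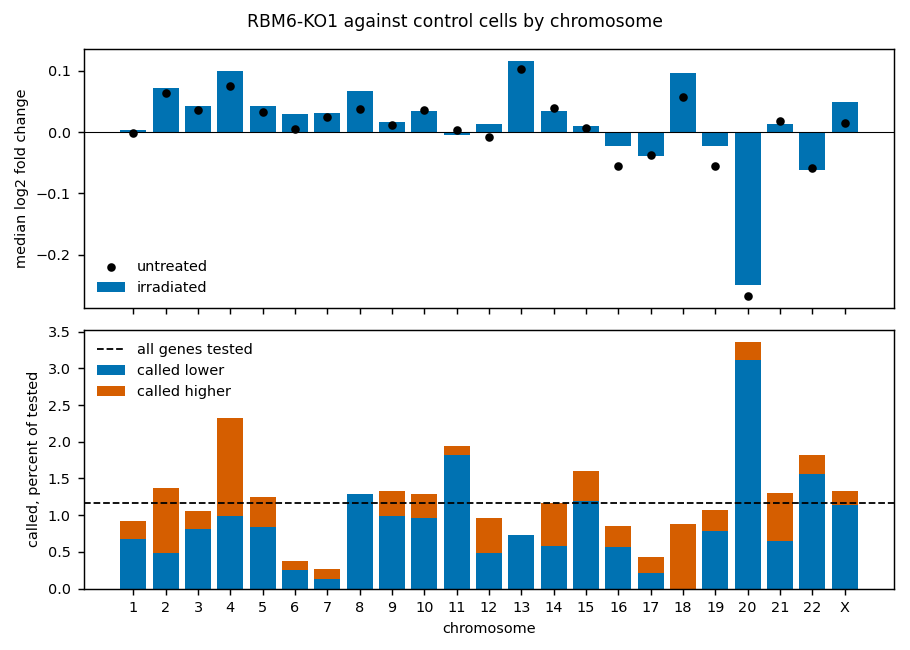
Median log2 fold change (top) and percent of tested genes called (bottom) by chromosome. Bars in the top panel are irradiated and dots untreated cells, and the dashed line is the share over all genes, 1.17%. Chromosome 20 has the lowest median in both, -0.25 and -0.27.

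Markers of other cell types were scarce. Of 8 leukocyte markers 2 were tested, and PTPRC and CD3E, which define leukocytes, were at or near 0 in all 4 libraries, while CD14 made up most of the summed level of 12.9 to 13 CPM in control and 5.31 to 6.13 CPM in RBM6-KO1. Of 8 fibroblast markers 3 were tested, with a summed level of 90.6 to 110 CPM in control and 175 to 212 CPM in RBM6-KO1. That sum was mostly DCN, and COL1A2, COL3A1, LUM, PDGFRA and THY1 were under 1 CPM in all 4 libraries. The endothelial sum was 7.58 to 12.6 CPM in control and 5.32 to 7.16 CPM in RBM6-KO1, with 3 of 6 markers tested. The luminal sum was 452 to 628 CPM in control and 357 to 436 CPM in RBM6-KO1, nearly all of it KRT8 and KRT18.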

How the data were processed

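RNA of MCF10A-Hras cells was made into TruSeq mRNA libraries and sequenced as 150 bp paired ends on a HiSeq sequencer. The submitters' processing notes name STAR, DESeq2 and hg38. The authors deposited raw counts per Ensembl gene, whole numbers without normalization. The counting tool, annotation version and strandedness are not given in the sources used here. Symbols and GRCh38 positions came from GENCODE v44, which holds 57392 of the 58233 identifiers.

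In R 4.3.3, edgeR 4.0.16 (TMM, filterByExpr, glmQLFit and glmQLFTest) was fitted to the 4 irradiated libraries, with Benjamini-Hochberg adjustment over all genes tested. The untreated libraries had a fit of their own, and the interaction used all 8. The standard error is the log2 fold change divided by the square root of F. DESeq2 1.42.0 gave an alternative test. Genes were named as RBM6, 3 repair genes the study names, the 12 lower and 12 higher calls with the smallest p-values, and called members of the hand-written lists and symbol families, with uncalled members of highest level. The 12 lower and 12 higher calls were taken from those whose groups do not overlap, which held for all 182 calls. Of the list symbols 5 matched no identifier. Some members of this selection are not reported here. Some called members are counted without being named, and genes named outside this rule are marked as such. The members and lists were chosen with earlier results of these data known. Lists are described by counts and medians, without a set test. The scripts were tested on simulated data.

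The labels mark replicates A and B, which the paper calls biological replicates. The p-values rest on the spread between them, shared across genes by the edgeR model, and hold no spread between knockout clones. The alternatives were other normalizations, DESeq2, other filters, glmTreat (a test against a 2-fold change), all 8 libraries in 1 fit, a replicate block, and a spline correction for GC content and length. Each library was also left out of the fit, and the genes of chromosome 20 were taken out after it.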

Additional observations from a re-analysis of the deposited data

How the results depend on the processing

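Against 182 genes called (127 lower, 55 higher), DESeq2 called 280 (186 and 94), no filter 506 (323 and 183), the filter of at least 10 counts 71 (46 and 25), glmTreat 46 (35 and 11), all 8 libraries in 1 fit 340 (224 and 116), and the GC and length correction 342 (211 and 131). Leaving out 1 library gave 169 to 477 genes, 114 to 292 lower and 55 to 246 higher. A block for the replicate letter gave 541 genes (352 and 189), and with the GC and length correction 578 (361 and 217). The letters are not said to mark a shared batch: the A minus B differences of the genotypes correlated at r = 0.405 over 15587 genes, and 2 pairs are too few to call the samples paired. The block kept all 182 calls.

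Of the medians, HR moved from 0.07 to 0.00937 with the GC and length correction and to 0.00443 with the block added, collagens from -0.64 to -0.52 with either, and chemokines from 1.16 to 0.94 and 0.93. Leaving out a library gave 0.0161 to 0.0912 for HR, -0.25 to -0.0288 for p53 targets, -0.16 to 0.01297 for DNA replication, -0.63 to -0.52 for the sterol list, -0.77 to -0.56 for collagens and 1.07 to 1.19 for chemokines. No direction of the 76 named genes reversed in the 13 settings in which they were followed, which leave out glmTreat, and 27 lost their call in at least 1. The filter of at least 10 counts tested 61 of the 76. Of these 22 lost their call and 39 kept their state, RBM6 among them without a call to keep. The other 15 were not tested there and have no call, APBB1, RPL39L, RBP4, CEMIP, AQP9, FOXF1, KDR and OGDHL among them. The causes were not tested. Precision was limited by 2 libraries per group, with a biological coefficient of variation of 0.174 after IR and 0.133 in untreated cells.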
